A study of Mus musculus with 6 samples.

Results

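The genes described here were 45 listed genes of DNA replication and the 19 genes that share at least 1 exonic base with one of them on the opposite strand. They made 64 of the 57010 genes in the count table. The list was taken as given, by gene symbol, and the neighbours were found from the exon positions and strands in the table. Of the 45 replication genes, 16 had such a neighbour and 29 had none.

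Polyadenylated RNA had been sequenced as paired ends from 6 wild-type mouse samples without any treatment. The ESC group (3 libraries) was embryonic stem cells, pluripotent dividing cells, whose line is given only as WT ESC. The neuron group (3 libraries) was primary cortical neurons from cortices of embryonic day 16.5, grown for 7 days in vitro. They were reference points for the path from pluripotent cell to neuron in a study of the gene Rai1. No strain is named, and the library names of neuron replicates 2 and 3 hold the word empty, which the labels do not explain. The labels do not say that the replicates came from separate cultures or animals, so p-values measure only the spread between these libraries, which may be technical. The batch label is the same as the group, so batch and cell type cannot be told apart.

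Before a cell divides, the origin recognition complex (ORC) marks start sites on the DNA, and Cdc6 and Cdt1 load the ring-shaped Mcm2 to Mcm7 helicase there. Cdc45 and the GINS complex then turn the helicase on, DNA polymerases copy both strands, and the ring-shaped clamp PCNA, opened and closed by the RFC complex, holds the polymerases on the DNA. Many of these genes are switched on by E2F factors as cells enter S phase, while cortical neurons have left the cell cycle.

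Library totals were 1368303 to 1775055 counts in the ESC group and 513425 to 624792 in the neuron group, so the neuron libraries were the shallower ones. Levels are in CPM, counts brought to a common library size, scaled between libraries by the trimmed mean of M values (TMM), and 3 counts are worth 2.26 to 2.90 CPM in ESC and 3.92 to 4.81 CPM in neuron libraries. All 12 pluripotency markers were found, at a summed 194 to 274 CPM in ESC and 2.98 to 8.01 CPM in neuron libraries, with 9 of them, Pou5f1 and Nanog among these, at 0 in every neuron library. The 12 neuron markers summed to 170 to 229 CPM in ESC and 1090 to 1338 CPM in neuron libraries, and Rbfox3, Snap25 and Gap43 were at 0 in every ESC library. Nefm alone gave 123 to 163 and 1006 to 1247 CPM of these sums. Without it the other 11 summed to 44.3 to 66.7 CPM in ESC and 67.3 to 90.9 in neurons, and 4 of them, Stmn2 and Tubb3 among these, had the higher mean in ESC. The 8 neural progenitor markers, genes of cells that could still divide, summed to 30.0 to 35.4 CPM in ESC and 77.5 to 133 CPM in neuron libraries, with Hes1 and Vim at 0 in the latter. Pax6 carried the difference, since the other 7 summed to 22.2 to 29.4 CPM in ESC and 16.4 to 30.5 in neurons, and 4 of them had the higher mean in ESC. The 7 astrocyte markers summed to 4.84 to 9.95 and 43.3 to 70.5 CPM, with Aldh1l1 at 0 in every neuron library and 4 markers at 0 in every ESC library. In the same order, the 7 oligodendrocyte lineage markers summed to 24.1 to 29.9 and 40.1 to 60.0 CPM. Mbp alone gave 17.4 to 25.3 and 1.31 to 3.21 of these. The other 6 summed to 2.26 to 8.71 and 36.9 to 58.7 CPM, and 5 had the higher mean in neurons and 1 in ESC. The 6 microglia markers summed to 254 to 322 and 191 to 200 CPM. Csf1r gave 185 to 250 and 120 to 133 of these, and the other 5 summed to 65.5 to 72.6 and 62.6 to 73.1. The 7 fibroblast markers summed to 2.90 to 5.43 and 2.98 to 4.81 CPM. The part of other cell types in the values below was not tested. ESC replicate 2 stood apart, since its counts differed from the other ESC libraries with a chi-square per degree of freedom of 3.96 and 4.16, against 1.31 between replicates 1 and 3.

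How the counting treated strand is not given in the sources used here, so reads from a gene and from its opposite-strand neighbour cannot be told apart. Of the counts of the 13 mitochondrial protein-coding genes, mt-Nd6, the only one encoded on the strand opposite to the rest, held 82.7%, 68.3% and 86.3% in ESC replicates 1 to 3 but 35.6%, 36.8% and 32.9% in neuron replicates 1 to 3. Whether strand was read or counted alike in the ESC and the neuron libraries is not known, and such a difference cannot be told apart from a difference between the cells. This limit applies to every difference between the groups below, also for single genes and for genes with and without a gene opposite. It applies as well to every value of a gene against its neighbour, those of Pcna with AV099323 and Orc1 with Gm12743 included. The marker sums above fall under the same limit. Exonic bases were shared with an opposite gene by 2 of 12 pluripotency, 4 of 12 neuron and 2 of 8 progenitor markers. The same held for 2 of 7 astrocyte, 2 of 7 oligodendrocyte, 4 of 6 microglia and 0 of 7 fibroblast markers. Genes that share exonic bases with an opposite gene were 9557 of the 57010 in the table. They held 90.9% to 91.9% of ESC counts and 88.5% to 89.4% of neuron counts. In bulk samples, fewer cells of a type and less RNA per cell cannot be told apart either.

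The neighbours were 14 protein-coding and 5 non-coding genes in 19 pairs. In 9 pairs the genes were head-to-head, meeting at their starts, in 9 they were tail-to-tail, and in 1 the neighbour lay within the replication gene. Between 39 and 2758 exonic bases were shared, with a median of 217. Both extremes are replication genes described below, since Orc5 shares 39 bases with the non-coding 6030443J06Rik and Gins2 shares 2758 with Gse1. In all, 4 neighbours had a further gene opposite, namely Ap4m1 (Taf6), Nif3l1 (Ppil3), 6030443J06Rik (Gm9523) and Gse1 (1700016A09Rik).

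Coding sequence lies in the shared stretch of some pairs, and 2 of them are shown because any fragment from the stretch reads as either gene once strand is set aside. In the GENCODE M21 transcripts, Pole and the antisense RNA Gm15792 share 78 coding bases, positions 5918 to 5995 of the 6849-base Pole coding sequence. For Orc1 and the non-coding Gm12743 only the longest unbroken stretch in the coding sequence is shown, 182 bases, positions 220 to 401 of 2520. These 2 genes share 376 exonic bases in all. Capitals mark the bases of these stretches, with 20 bases of each transcript on either side in lower case.
Pole strand: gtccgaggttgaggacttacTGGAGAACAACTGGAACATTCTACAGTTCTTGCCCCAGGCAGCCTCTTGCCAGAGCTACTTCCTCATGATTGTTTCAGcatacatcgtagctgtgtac
Gm15792 strand: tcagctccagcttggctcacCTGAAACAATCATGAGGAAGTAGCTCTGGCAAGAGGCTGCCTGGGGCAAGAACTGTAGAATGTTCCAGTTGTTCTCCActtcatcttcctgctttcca
Orc1 strand: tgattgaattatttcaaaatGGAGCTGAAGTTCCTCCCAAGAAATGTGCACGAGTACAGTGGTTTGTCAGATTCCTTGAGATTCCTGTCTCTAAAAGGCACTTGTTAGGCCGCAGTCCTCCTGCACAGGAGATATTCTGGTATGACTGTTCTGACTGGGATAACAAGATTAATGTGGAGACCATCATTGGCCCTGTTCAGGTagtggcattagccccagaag
Gm12743 strand: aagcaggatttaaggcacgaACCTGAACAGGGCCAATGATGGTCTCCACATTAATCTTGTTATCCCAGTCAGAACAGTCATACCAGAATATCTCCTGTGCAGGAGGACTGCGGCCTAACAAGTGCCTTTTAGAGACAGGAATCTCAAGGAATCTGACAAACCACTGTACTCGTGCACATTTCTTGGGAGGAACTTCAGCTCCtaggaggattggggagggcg
The capitals of each pair are reverse complements of each other. All 1140 coding bases of Fen1 lie opposite the RNA Gm10143.

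Across the 45 replication genes, 16 had enough counts to be tested between neurons and ESC by edgeR's quasi-likelihood test, with Benjamini-Hochberg adjustment over 7150 genes and a threshold of 0.05. Pcna, Mcm2, Mcm3, Mcm5 and Rrm2 were lower in neurons (5 genes), and Orc1, Orc3, Orc4, Rfc2, Rfc4, Rfc5 and Tk1 were higher (7 genes). Mcm7, Orc2, Gins2 and Lig1 did not pass. Of all genes tested, 38.6% were called lower and 47% higher, so calls are common here. The median log2 fold change of the 16 genes was 0.18, against 0.37 for all genes tested. By kind, 4 of the 5 tested genes with no gene opposite were lower and 1 was higher, where 29.5% and 57.9% of all tested genes of that kind were. Of the 11 tested genes with a neighbour, 1 was lower and 6 were higher, where 43.4% and 41.2% of all tested genes of that kind were. A gene that reached the filter only through the counts of a single group was likely to differ for that reason. Mcm3 did so through ESC, and Orc1 and Rfc2 through neurons. The numbers of calls thus say nothing about the list as a whole. With no filter on counts, 22 of the 45 genes were lower and 8 higher, against 19.6% and 21.2% of the 28820 genes with a count. Scaling by library totals raised the number called higher to 10, with Mcm7, Gins2 and Lig1 added. The number called lower also moved with single libraries, to 3 without ESC replicate 1 or 3, and to 12, 13 and 12 without neuron replicates 1, 2 and 3.

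Replication genes with and without a gene opposite are given side by side. Among the 29 genes with no gene opposite their exons, 26 had the higher mean CPM in ESC, and for 22 of them every ESC library lay above every neuron library. Among the 16 genes with a neighbour, 7 were higher in ESC and 9 in neurons, and every ESC library lay above every neuron library for 3 and below for 7. Of all genes with a count, 22.8% had every ESC library above and 24.2% had every neuron library above. Of the 7150 genes tested, 86.4% did not overlap between the groups in CPM, and 13 of the 16 tested replication genes did not. Groups without overlap are thus common among tested genes, also for the single genes below. In the fit with no filter, 19 of the 29 and 3 of the 16 genes were called lower, while 2 of the 29 and 6 of the 16 were called higher. In that fit, 14.3% of all genes whose exons face no opposite exon were lower and 18.3% higher, and of those that do face one, 32% were lower and 28.3% higher.

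Median levels per length followed the same split. The 29 genes with no gene opposite had a median of 1.61 CPM per kilobase of exon in ESC and 0.117 in neurons, and 10 of them were at 0 in every neuron library. The 16 genes with a neighbour had medians of 5.02 and 7.26 CPM per kilobase. The difference between the 2 kinds was not tested.

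**Figure D1:**
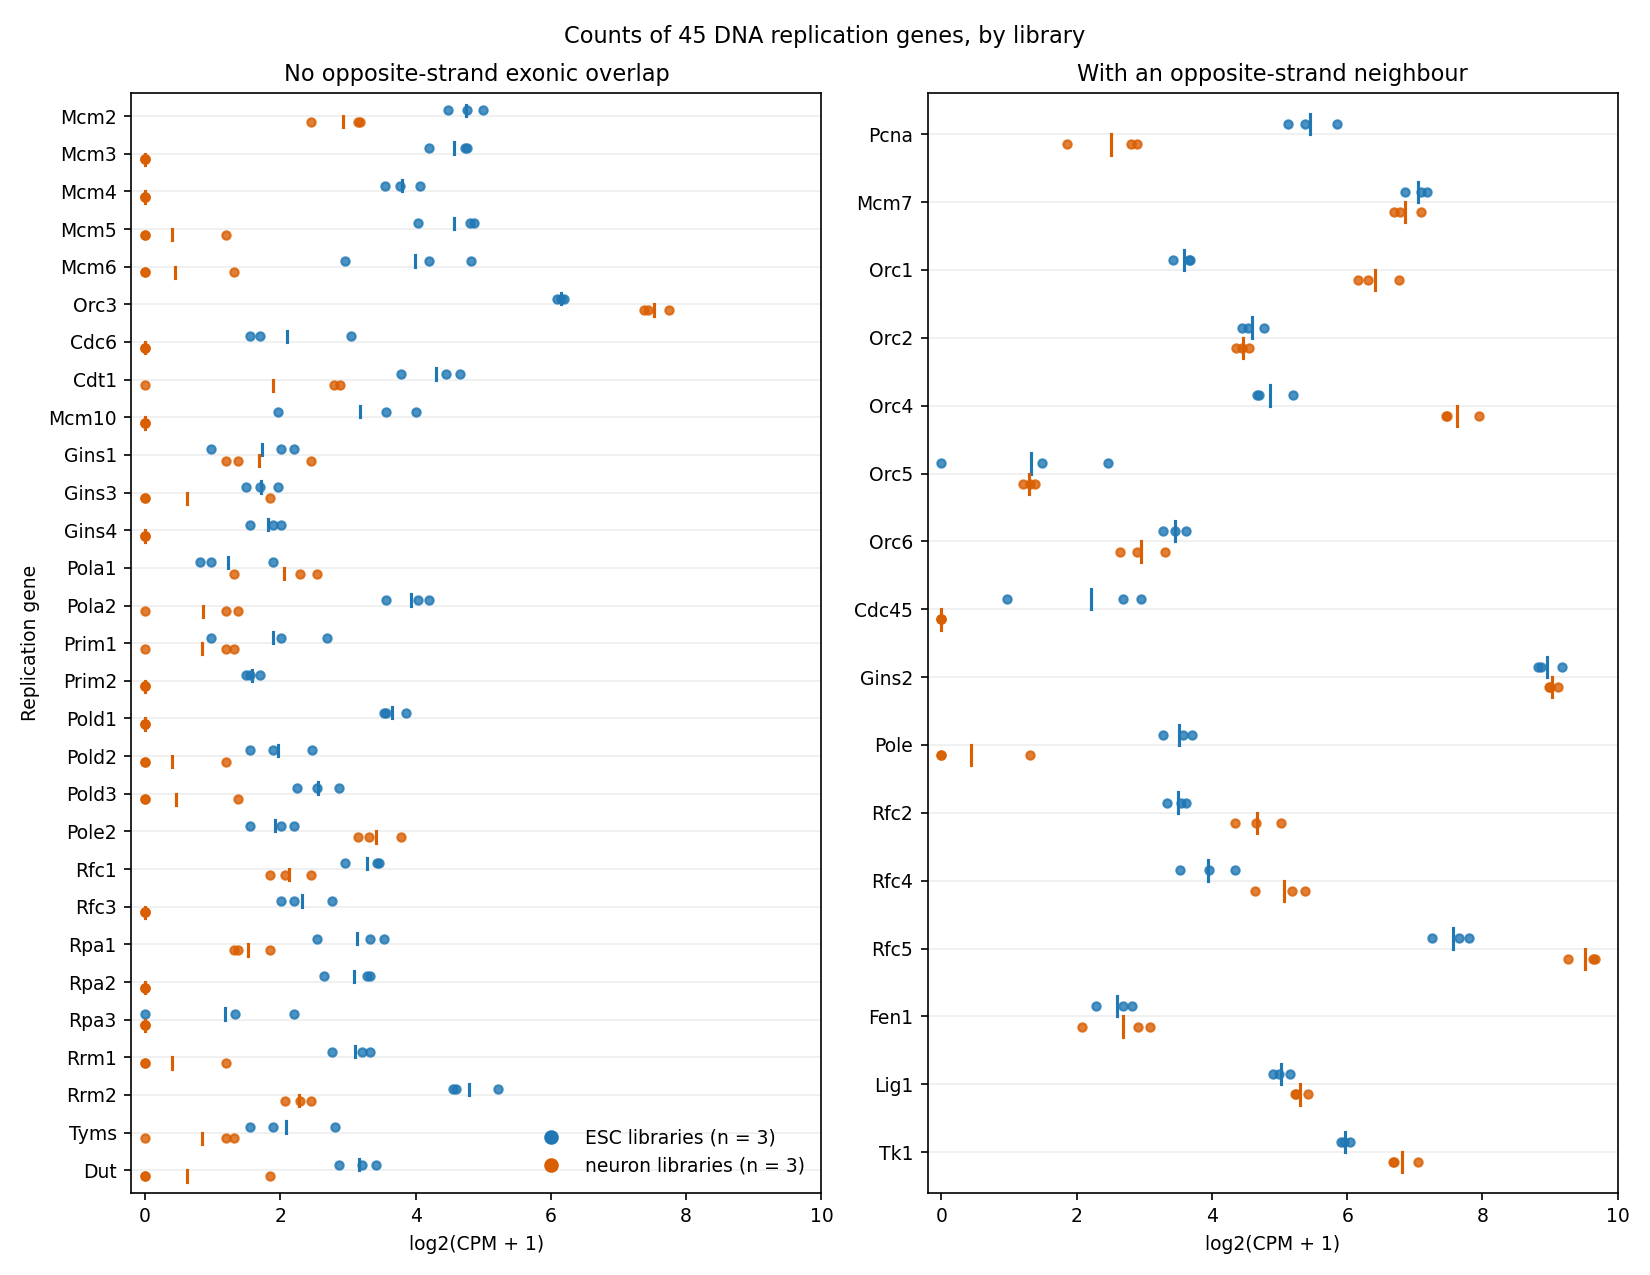
Level of each replication gene as log2(CPM + 1), with 1 point per library and a bar at the group mean, for 3 ESC and 3 neuron libraries. The left panel holds the 29 genes with no gene opposite, of which 10 (Mcm3 and Mcm4 among them) are at 0 in every neuron library, and the right panel the 16 genes with a neighbour.

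Pcna encodes the sliding clamp, and AV099323 is a non-coding gene that starts within it. Pcna (ENSMUSG00000027342.15) spans positions 132091082 to 132095234 on the minus strand of chromosome 2, and AV099323 (ENSMUSG00000087377.3) spans 132094723 to 132103253 on the plus strand, in the table's own coordinates. They share 499 exonic bases in the first exon of Pcna, which is 20.8% of the exonic length of Pcna and 32.5% of that of AV099323.

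Pcna had 75, 35 and 45 counts in ESC, against 2, 4 and 4 in neurons. All ESC libraries lay above all neuron libraries, at 43.7 ± 11.6 against 4.99 ± 2.08 CPM (SD, n = 3). The log2 fold change was -3.15 (edgeR adjusted p = 4.22e-09, SE 0.40). AV099323 had 11600, 8703 and 9660 counts in ESC, against 243, 248 and 203 in neurons, again without overlap. Its level was 8630 ± 183 against 337 ± 28.2 CPM (SD, n = 3), with a log2 fold change of -4.68 (edgeR adjusted p = 1.98e-31, SE 0.11). Both genes of the pair were thus lower in neurons. Per kilobase of exon, AV099323 stood at 5622 ± 119 CPM in ESC and Pcna at 18.2 ± 4.83 (SD, n = 3), and in neurons at 220 ± 18.4 and 2.08 ± 0.87.

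AV099323 held nearly all counts of the pair in both groups. Its share was 99.4%, 99.6% and 99.5% in ESC and 99.2%, 98.4% and 98.1% in neurons. The groups did not overlap, but an exact two-sided permutation test gave p = 0.1, the smallest that 3 against 3 libraries allow.

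The helicase genes without a gene opposite had at most 6 counts in any neuron library. Mcm2 had 41, 22 and 29 counts in ESC, against 6, 3 and 5 in neurons, a log2 fold change of -1.94 (edgeR adjusted p = 2.89e-05, SE 0.40). Mcm3 had 34, 18 and 29 counts in ESC, with 0 in every neuron library. Against a floor of 3 counts per library it was at least 5.35-fold lower in neurons (edgeR adjusted p = 5.65e-09). Mcm5 had 36, 16 and 31 counts against 1, 0 and 0, a ratio of 49.3 with a counting interval of 8.61 to 1972 (edgeR adjusted p = 2.00e-08). For all 3 genes every ESC library was above every neuron library, though Mcm3 and Mcm5 did not reach the filter once ESC replicate 1 or 3 was left out.

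Mcm4 and Mcm6 had too few counts for the test. Mcm4 had 21, 11 and 14 counts in ESC, with 0 in every neuron library, at least 3.04-fold lower. Mcm6 had 23, 7 and 30 counts against 0, 1 and 0, a ratio of 35.7 with a counting interval of 6.16 to 1432. Neither gene overlapped between the groups. Intervals and floors cover counting error only.

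Mcm7, the remaining subunit of the ring, has a gene opposite at each end and did not follow the other 5. It had 192, 118 and 150 counts in ESC, against 104, 69 and 68 in neurons, and the groups overlapped on the CPM scale. The log2 fold change was -0.18 (edgeR adjusted p = 0.320, SE 0.17), and with libraries scaled by their totals it turned to 0.55 and was called higher (adjusted p = 0.00341). Per kilobase, Mcm7 stood at 29.7 ± 3.53 CPM in ESC and 26.2 ± 3.95 in neurons (SD, n = 3), while the other 5 subunits stood at 3.63 to 6.15 in ESC and at most 0.97 in neurons. Its neighbours were lower in neurons. Cops6, a subunit of the COP9 signalosome that shares 64 bases with the last exon of Mcm7, had 403, 349 and 392 counts against 64, 42 and 49, a log2 fold change of -2.14 (edgeR adjusted p = 2.64e-15, SE 0.16). Ap4m1, a subunit of the AP-4 adaptor complex that shares 321 bases with the first exon, had 988, 740 and 799 counts against 128, 119 and 102, a log2 fold change of -2.10 (edgeR adjusted p = 1.56e-18, SE 0.12). Neither neighbour overlapped between the groups.

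Of the 6 origin recognition genes, 4 were tested, and Orc1, Orc3 and Orc4 were higher in neurons. Orc1, a subunit that binds nucleotides and helps load the helicase, had 13, 12 and 13 counts in ESC, against 60, 72 and 44 in neurons. Its log2 fold change was 2.94 (edgeR adjusted p = 2.46e-12, SE 0.28) with no overlap between groups. Its neighbour Gm12743 had 1048, 792 and 867 counts against 8, 4 and 0, a log2 fold change of -7.04 (edgeR adjusted p = 4.56e-23, SE 0.24). The 2 genes share 376 exonic bases within exons 5 to 14 of Orc1. Gm12743 thus held 98.8%, 98.5% and 98.5% of the pair's counts in ESC and 11.8%, 5.26% and 0% in neurons.

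Orc4 was also higher in neurons, with 33, 37 and 27 counts in ESC, against 135, 165 and 109 in neurons (log2 fold change 2.82, edgeR adjusted p = 2.58e-15, SE 0.21). Acvr2a, an activin receptor that shares 446 bases with the last exon of Orc4, had 113, 86 and 84 counts against 37, 47 and 13. Its log2 fold change was -0.80 (edgeR adjusted p = 0.00451, SE 0.25), and the call was lost without neuron replicate 3 (-0.50, adjusted p = 0.0559), with scaling by library totals (-0.07) and when genes under a mean of 10 counts were dropped (-0.43, adjusted p = 0.128). The groups of both genes stood apart. Mbd5, a methyl-CpG-binding domain gene at the other end of Orc4, had 0 to 3 counts in every library.

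Orc3 was higher in neurons without any gene opposite its exons. It had 89, 75 and 77 counts in ESC, against 126, 144 and 108 in neurons, with no overlap in CPM and a log2 fold change of 1.40 (edgeR adjusted p = 1.96e-09, SE 0.17). It kept that direction and call in all 14 alternatives run, from 0.65 to 2.13. Its level per kilobase rose from 11.5 ± 0.46 to 30.2 ± 4.40 CPM (SD, n = 3), and in neurons Orc1 stood at 24.5 ± 5.57 and Orc4 at 26.7 ± 5.45.

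Orc2 did not pass the test. It had 35, 23 and 23 counts in ESC, against 15, 14 and 14 in neurons, which overlapped in CPM, and its log2 fold change of -0.16 (edgeR adjusted p = 0.640, SE 0.31) turned to 0.57 with library totals. Its neighbour Nif3l1, which shares 1150 bases, had 1376, 1128 and 1180 counts against 123, 116 and 95, a log2 fold change of -2.72 (edgeR adjusted p = 2.39e-22, SE 0.12). Orc5 (0 to 6 counts) and Orc6 (4 to 15 counts) were too low to test and overlapped between groups. The non-coding 6030443J06Rik, opposite Orc5, had 8, 7 and 8 counts against 0, 0 and 1. Vps35, a retromer subunit opposite the first exon of Orc6, had 88, 82 and 63 counts against 12, 4 and 6 and was lower by a log2 fold change of -2.65 (edgeR adjusted p = 9.63e-10, SE 0.31).

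The genes that load and fire the helicase were all too low to test. Cdt1, the loading factor, had 17, 25 and 23 counts in ESC, against 0, 4 and 4 in neurons, without overlap. Cdc6, Mcm10 and Cdc45 had at most 20 counts in any ESC library and were at 0 in every neuron library. Ufd1, which works with the p97 segregase and lies opposite the first exon of Cdc45, had 3, 3 and 10 counts in ESC, against 1, 2 and 1 in neurons.

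Gins2 carried nearly all counts of the GINS complex. It had 616, 595 and 500 counts in ESC, against 391, 338 and 347 in neurons, and the groups overlapped in CPM with a log2 fold change of 0.07 (edgeR adjusted p = 0.546, SE 0.12). The sign turned without ESC replicate 1 or 3 and without neuron replicate 3, and with library totals the value was 0.81 and past the threshold. Per kilobase, Gins2 stood at 121 ± 16.6 CPM in ESC (SD, n = 3), while Gins1, Gins3 and Gins4 stood at 0.86 to 1.89 and had at most 4 counts in any library. The 2758 bases shared with Gse1 cover 67.3% of the exonic length of Gins2, all in its last exon. Gse1 had 277, 218 and 267 counts in ESC, against 21, 19 and 17 in neurons, a log2 fold change of -2.99 (edgeR adjusted p = 1.22e-16, SE 0.20) without overlap.

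No polymerase gene reached the filter. Pola2, the regulatory subunit of polymerase alpha, had 23, 16 and 12 counts in ESC, against 1, 0 and 1 in neurons, and the catalytic Pold1 had 14, 14 and 12 against 0 in each neuron library, at least 2.64-fold lower. Pole, the leading-strand polymerase, had 16, 9 and 12 counts against 0, 1 and 0, a ratio of 22.0 with a counting interval of 3.71 to 892. None of these 3 overlapped between the groups. Gm15792, opposite Pole, had 509, 314 and 374 counts in ESC, against 8, 9 and 6 in neurons, a log2 fold change of -4.92 (edgeR adjusted p = 5.40e-22, SE 0.22). Pole2 went the other way, with 4, 2 and 4 counts in ESC, against 6, 6 and 8 in neurons (log2 fold change 1.55, edgeR adjusted p = 0.0314 with no filter). Pola1, Prim1, Prim2, Pold2 and Pold3 had at most 7 counts in any library.

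Of the 5 clamp loader genes, the 3 with a gene opposite were tested and called higher in neurons. Whether a gene opposite bears on the direction was not tested. Rfc5 had 295, 157 and 222 counts in ESC, against 469, 532 and 506 in neurons, a log2 fold change of 1.94 (edgeR adjusted p = 6.00e-15, SE 0.14). Rfc4 had 14, 20 and 16 counts against 31, 16 and 22 (1.19, edgeR adjusted p = 0.000856, SE 0.32). Rfc2 had 15, 11 and 10 counts against 24, 13 and 15 (1.27, edgeR adjusted p = 0.00108, SE 0.35). In CPM none of these 3 overlapped between the groups. Rfc1 (13, 7 and 11 against 2, 3 and 2 counts) and Rfc3 (4, 6 and 4 against 0 in each) have no gene opposite, were too low to test and were higher in every ESC library.

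The neighbours of the clamp loader genes were mostly lower in neurons. Wsb2, a WD-repeat SOCS-box gene opposite the last exon of Rfc5, had 65, 50 and 39 counts against 6, 6 and 5 (-2.41, edgeR adjusted p = 4.58e-08, SE 0.34). Eif4a2, an RNA helicase of translation initiation opposite the last exon of Rfc4, had 155, 111 and 127 counts against 21, 27 and 29 (-1.59, edgeR adjusted p = 2.14e-08, SE 0.22). Lat2, a membrane adaptor of immune cells, had 2, 4 and 3 counts against 3, 7 and 12, and was the neighbour called higher with no filter (log2 fold change 1.84, edgeR adjusted p = 0.00875).

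The 3 RPA genes, whose protein coats single-stranded DNA, have no gene opposite and had at most 14 counts in any ESC library and 2 in any neuron library. Fen1, the nuclease that trims flaps between newly made fragments, had 8, 4 and 6 counts in ESC, against 5, 5 and 2 in neurons, which overlapped. Gm10143, which covers 78.8% of the exonic length of Fen1, had 3922, 3001 and 3344 counts against 120, 102 and 85, a log2 fold change of -4.31 (edgeR adjusted p = 2.66e-29, SE 0.11). Tmem258, a subunit of the oligosaccharyltransferase at the other end of Fen1, had 9, 7 and 7 counts in ESC, with 0 in every neuron library, at least 1.52-fold lower. Lig1, which seals the fragments, had 46, 30 and 34 counts against 28, 28 and 23. Its groups did not overlap in CPM, yet its log2 fold change of 0.28 did not pass (edgeR adjusted p = 0.308, SE 0.26), and with library totals it was 1.01 and past the threshold. Zswim9, a zinc finger gene opposite its first exon, had 188, 236 and 142 counts against 2, 4 and 5 (-4.92, edgeR adjusted p = 8.93e-15, SE 0.34).

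Among the genes of nucleotide supply, Rrm2, the small subunit of ribonucleotide reductase, had 30, 24 and 40 counts in ESC, against 3, 3 and 2 in neurons, without overlap. It was lower by a log2 fold change of -2.77 (edgeR adjusted p = 7.09e-07, SE 0.45) and has no gene opposite. Tk1, the thymidine kinase of dividing cells, had 81, 67 and 65 counts against 101, 69 and 63, which is 61.5 ± 3.04 and 112 ± 17.3 CPM (SD, n = 3), and was higher by 0.87 (edgeR adjusted p = 8.17e-05, SE 0.19). Afmid, opposite its first exon, had 13, 4 and 6 counts against 0, 0 and 1. Rrm1, Tyms and Dut, with no gene opposite, had at most 11 counts in any ESC library and 2 in any neuron library.

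**Figure D2:**
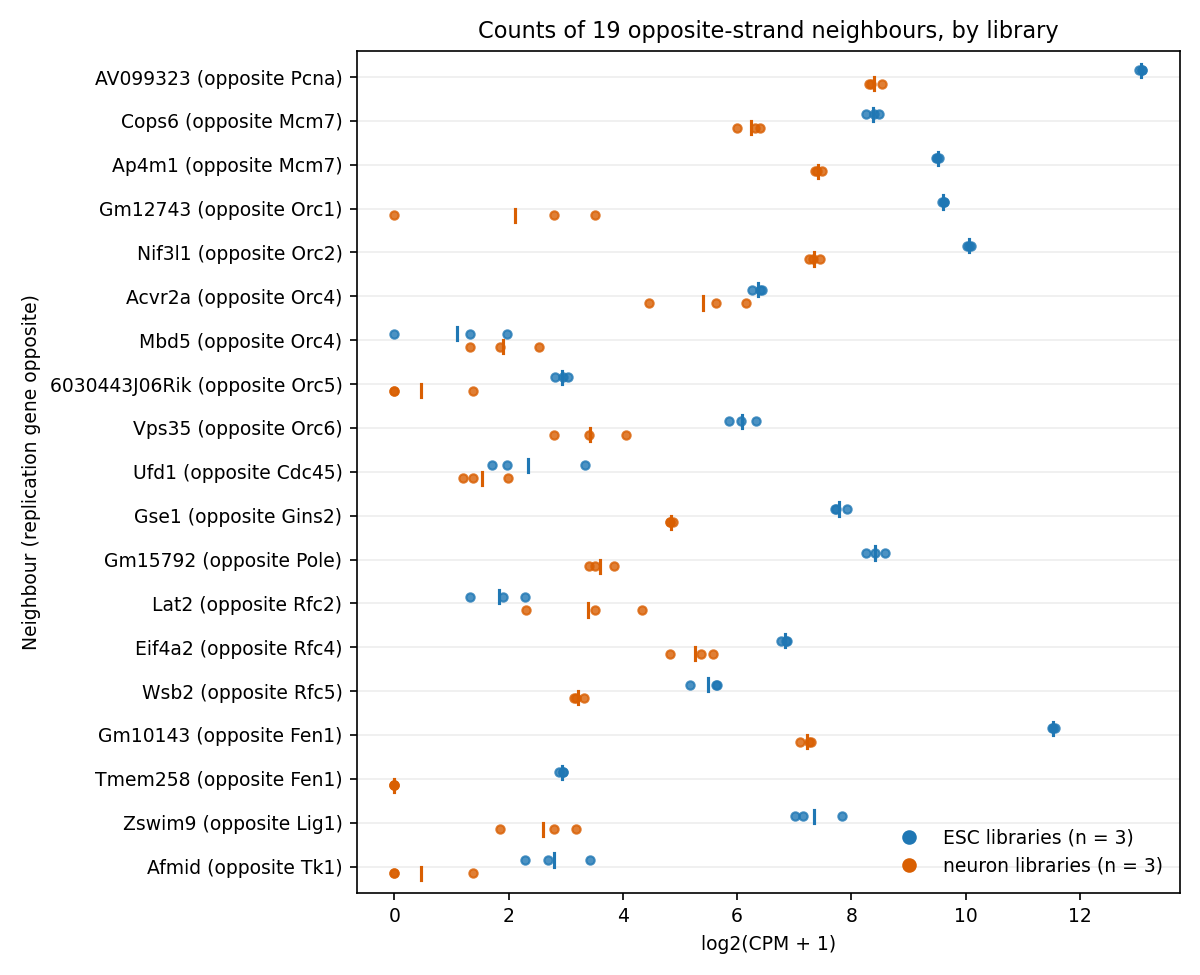
Level of the 19 opposite-strand neighbours as log2(CPM + 1), with 1 point per library and a bar at the group mean. AV099323 is highest, at 8419 to 8741 CPM in ESC. The ESC points lie above the neuron points for 16 of the 19 genes. Lat2 is the 1 gene with all neuron points above, by 3.92 CPM in neuron replicate 1 against 3.87 in ESC replicate 2. Of all genes with a count, 22.8% had every ESC library above and 24.2% every neuron library above. Of all genes tested, 86.4% did not overlap between the groups.

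Of the 19 neighbours, 13 were tested and all 13 were lower in neurons (median log2 fold change -2.72). Among tested genes that share an exonic base with an opposite gene, 43.4% were lower. Several, such as Gm12743, Zswim9 and Wsb2, passed the filter through their ESC counts alone and so were likely to be called lower. With no filter, 16 of 19 were lower and 1 was higher, against 32% and 28.3% of genes of that kind. Scaling by library totals moved the median of all genes tested by 0.73 toward neurons, and 12 of the 13 were then called lower.

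The split of counts within each pair does not depend on library size. For 13 of the 16 replication genes with a neighbour, the neighbours' share was higher in every ESC library than in every neuron library. It was higher in every neuron library for Cdc45 alone, where the pair had at most 16 counts in a library, and it overlapped for Pole and Rfc2. Orc5, among the 13, rested on pairs of 14, 7 and 10 counts in ESC and 1, 1 and 2 in neurons. Of 6940 genes with an opposite-strand neighbour and counts in all libraries, 28.3% had every ESC library above and 27.1% every neuron library above. The median share over the 16 genes was 85.1% in ESC and 41.8% in neurons, while over all such genes it was 59.1% and 58.9%. Both genes of a pair entered the values for all such genes, with shares that mirror each other. Near-equal values there follow largely from that and do not show that shares elsewhere stayed alike between the groups. Orc1 had the widest gap between groups of the 16, and for Lig1 the share was 80.3% to 88.7% in ESC and 6.67% to 17.9% in neurons.

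**Figure D3:**
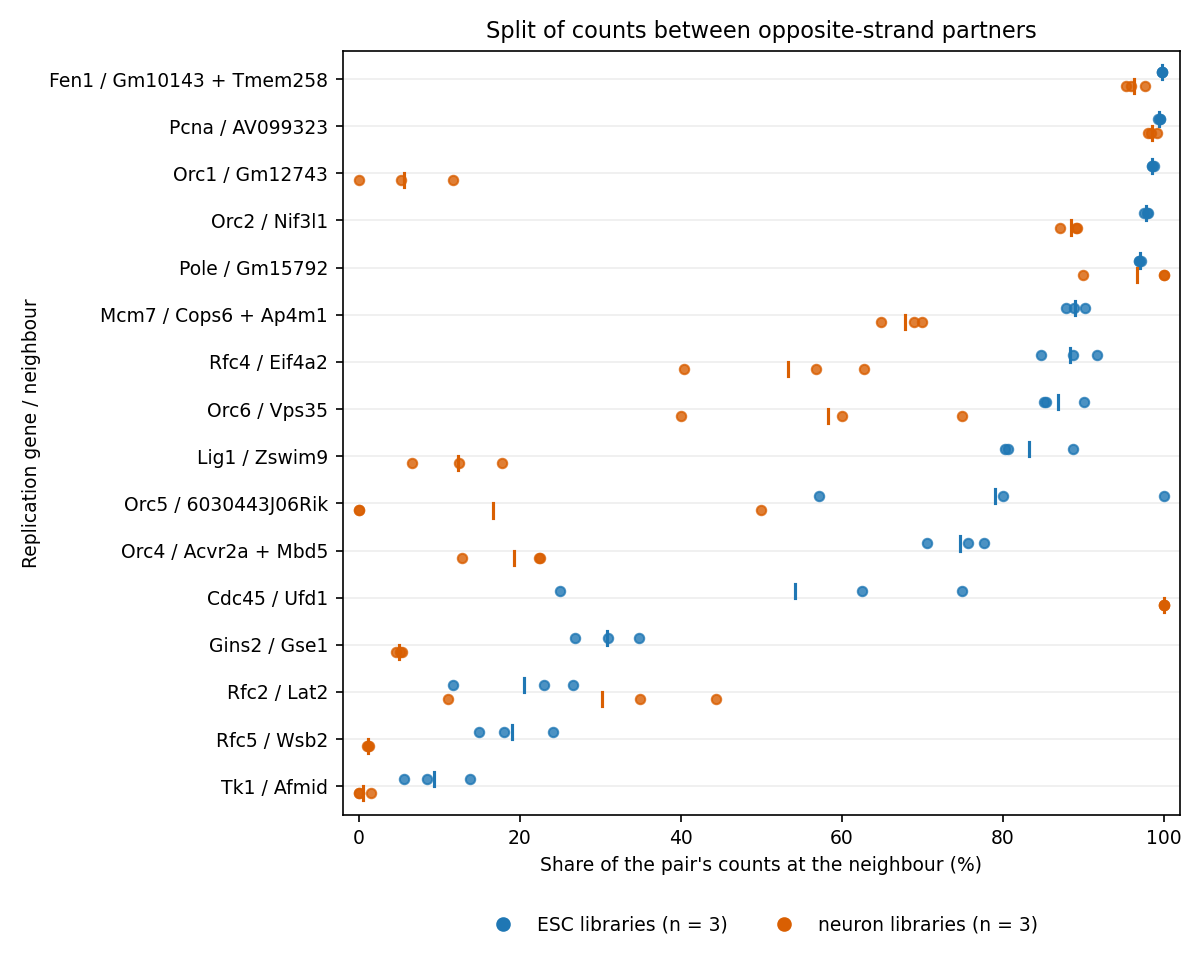
Share of the counts of each pair that was assigned to the neighbour, in percent, with 1 point per library and a bar at the group mean. In the Orc1 and Gm12743 pair the ESC points sit near 98.6% and the neuron points between 0% and 11.8%, while the Pcna and AV099323 pair stays above 98% in both groups.

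Summed over all 45 genes, replication genes took 0.108%, 0.104% and 0.105% of the counts in ESC and 0.245%, 0.270% and 0.264% in neurons. The larger share in neurons came from the genes with a neighbour, which held 1469, 1128 and 1142 counts in ESC, against 1370, 1333 and 1222 in the smaller neuron libraries. The 29 genes without one held 455, 297 and 410 counts against 159, 171 and 136, which is 0.0217% to 0.0278% of ESC and 0.0254% to 0.0307% of neuron counts. Orc3 gave 126, 144 and 108 of these neuron counts, and the other 28 genes held 366, 222 and 333 against 33, 27 and 28. The neighbours took 1.17%, 1.16% and 1.18% of ESC counts and 0.128%, 0.136% and 0.123% of neuron counts, and AV099323 alone took 0.654%, 0.636% and 0.654% against 0.0389%, 0.0446% and 0.0395%.

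**Figure D4:**
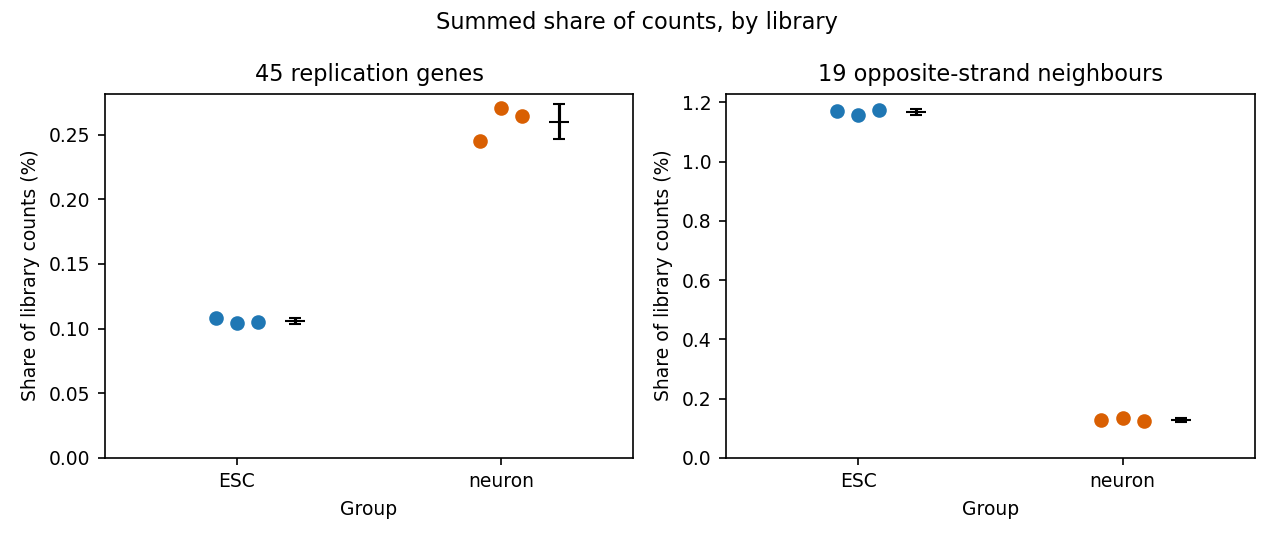
Percent of each library's counts in the replication genes and in their neighbours, with 1 point per library. Replication genes lie at 0.104% to 0.108% in ESC and 0.245% to 0.270% in neurons, and the neighbours move the other way, from 1.16% to 1.18% down to 0.123% to 0.136%.

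Promoters of replication genes often hold E2F words. The RefSeq promoter windows (GRCm38.p6, 250 bases before to 50 after the start) were searched on both strands for TTTCGCGC, TTTGGCGC, TTTCCCGC or TTTGCCGC, whose matches can overlap. A match was found in 15 of 46 windows of the replication genes (32.6%, 38 genes matched by symbol), and in 744 of 32851 windows of all genes (2.26%). By kind, 12 of 26 windows of genes with no gene opposite held one (46.2%), 3 of 20 of genes with a neighbour (15%) and 2 of 19 of the neighbours (10.5%). The word CCAAT was in 54.3% of the replication gene windows and 37.4% of all windows, and the words TTTGAA or TTCGAA in 15.2% and 19.2%. Of the windows of genes called lower in neurons, 2 of 5 held an E2F word (40%). Of those of genes called higher, 2 of 8 did (25%), namely Orc1 and Orc3. The 250 bases before the start are shown for genes that were lower (Pcna, Mcm5) and higher (Orc1, Orc3) in neurons, with E2F words in capitals. These examples do not stand for the shares of either kind.
Pcna, chr2:132253181-132253430, minus strand: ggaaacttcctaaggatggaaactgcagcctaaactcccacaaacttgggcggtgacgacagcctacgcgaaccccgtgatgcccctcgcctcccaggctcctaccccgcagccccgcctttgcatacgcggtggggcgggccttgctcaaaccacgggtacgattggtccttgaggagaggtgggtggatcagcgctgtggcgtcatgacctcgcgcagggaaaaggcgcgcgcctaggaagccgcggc
Mcm5, chr8:75109259-75109508, plus strand: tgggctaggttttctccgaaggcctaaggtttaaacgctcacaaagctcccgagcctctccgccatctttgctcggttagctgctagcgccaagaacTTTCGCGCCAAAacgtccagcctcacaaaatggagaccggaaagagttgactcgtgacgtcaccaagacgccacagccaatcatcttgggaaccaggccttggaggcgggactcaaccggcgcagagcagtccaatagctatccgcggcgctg
Orc1, chr4:108579204-108579453, plus strand: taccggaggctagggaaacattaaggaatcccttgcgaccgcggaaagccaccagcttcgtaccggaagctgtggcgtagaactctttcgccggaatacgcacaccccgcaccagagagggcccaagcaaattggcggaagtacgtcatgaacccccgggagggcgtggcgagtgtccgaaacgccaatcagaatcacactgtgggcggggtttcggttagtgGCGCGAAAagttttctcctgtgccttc
Orc3, chr4:34614943-34615192, minus strand: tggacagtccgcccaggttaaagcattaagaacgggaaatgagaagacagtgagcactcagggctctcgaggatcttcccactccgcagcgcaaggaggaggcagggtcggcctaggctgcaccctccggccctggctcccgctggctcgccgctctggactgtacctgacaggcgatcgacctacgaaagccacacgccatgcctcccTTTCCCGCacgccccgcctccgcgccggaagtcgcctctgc
Mcm5 holds overlapping words 141 and 145 bases before its start, Orc1 holds 1 at 19 bases and Orc3 holds 1 at 33 bases, while none of these letters stand in the Pcna stretch. A match is a description of the letters and not of a bound site.

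Other genes of the same processes were read from 3 lists. Their counts are read against the 38.6% of all tested genes that were lower and the 47% that were higher. Genes that reached the filter through ESC counts alone were likely to be called lower. Those that reached it through neuron counts alone, such as Rnaseh2b, were likely to be called higher. Of 28 further fork and initiation genes, 10 were tested, with 7 lower and 3 higher in neurons. Rnaseh2a, a subunit of the nuclease that removes RNA from DNA, had 3038, 2199 and 2424 counts in ESC, against 716, 652 and 583 in neurons (-1.22, edgeR adjusted p = 1.77e-14, SE 0.10). Its partner Rnaseh2c had 572, 504 and 486 against 138, 149 and 139 (-1.12, edgeR adjusted p = 4.21e-10, SE 0.13). Rnaseh2b, the remaining subunit of that enzyme, chosen here after its values were seen, went the other way with 8, 6 and 3 against 10, 8 and 9 (1.39, edgeR adjusted p = 0.00357, SE 0.44), a call lost without ESC replicate 3 (1.02, adjusted p = 0.0534). Donson, a helicase assembly factor, had 718, 615 and 635 against 251, 217 and 170 (-0.89, edgeR adjusted p = 1.22e-08, SE 0.12), and with library totals its call was lost. All 4 share exonic bases with an opposite gene, and none overlapped between the groups.

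Of 8 genes of chromatin and DNA methylation at the fork, 4 were tested and 3 were lower. Nasp, a histone chaperone, had 112, 84 and 108 counts in ESC, against 13, 11 and 18 in neurons (-2.09, edgeR adjusted p = 2.23e-09, SE 0.26). Uhrf1, which guides maintenance methylation, had 53, 34 and 39 against 2, 1 and 0 (-4.51, edgeR adjusted p = 5.06e-10, SE 0.52). Neither has a gene opposite its exons. Chaf1a, the large subunit of chromatin assembly factor 1, shares 4648 bases with a single opposite gene. It had 1170, 833 and 1021 against 551, 473 and 459 (-0.27, edgeR adjusted p = 0.0142, SE 0.10), and its sign turned with library totals (0.46).

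Of 36 cell cycle genes, 13 were tested, with 8 lower and 4 higher. The 3 with the most counts all share bases with an opposite gene and were lower without overlap. Cdk4, a G1 kinase, had 1132, 874 and 1004 counts against 180, 149 and 138 (-1.94, edgeR adjusted p = 3.95e-18, SE 0.12), Ccna2, the S phase cyclin, had 441, 296 and 362 against 51, 48 and 53 (-2.09, edgeR adjusted p = 6.01e-15, SE 0.16), and Ccne2, a cyclin of S phase entry, had 270, 240 and 245 against 61, 87 and 35 (-1.30, edgeR adjusted p = 4.10e-07, SE 0.19).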

How the data were processed

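Bulk polyadenylated RNA was sequenced in 6 libraries, 3 per group, grouped by their titles. The authors deposited raw whole-number counts per gene with positions, strand and length. STAR made the alignments, per the file headers, and cutadapt, STAR, RSEM and the build GRCm39 are named in the submitters' processing notes. The counting tool, its strand setting and the annotation release are not given in the sources used here. Symbols came from GENCODE M21 by identifier (52029 of 57010 genes, 91.3%), promoters from RefSeq GRCm38.p6, and no position was converted between builds.

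Neighbours were found from the exon cells of the table. Counts were analysed as deposited with edgeR 4.0.16 in R 4.3.3: filterByExpr (minimum count 10, 7150 genes kept), TMM, glmQLFit (robust) and glmQLFTest on all 6 libraries without covariate, and Benjamini-Hochberg adjustment at 0.05. CPM used the total over tested genes times the TMM factor. The SE is approximate, from the log2 fold change and its F statistic. Ratios of sums have exact 95% counting intervals, and the floor was 3 counts per library. The fit and the overlap step were tested on simulated data.

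The members and lists were chosen with earlier results of these data known. The text names Pcna, AV099323, Mcm2 to Mcm7 and their neighbours always, other members with a mean of at least 20 counts in 1 group by sample, the rest by range, and the 3 genes with the most counts in each further list. Some low members (Cdt1, Pola2, Pold1, Pole, Fen1, Pole2, Lat2 and others) were given by sample after their values were seen. Alternatives were DESeq2 1.42.0 size factors and Wald test, limma 3.58.1 voom, library totals, other filters, a replicate block, other overlap minimums, other denominators and leaving out each library. The replicate numbers in the titles did not pair the samples. All columns of sample values were mapped.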

Additional observations from a re-analysis of the deposited data

How the results depend on the processing

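Of the alternative values for single named genes, 453 kept direction and side of the threshold, 10 reversed, 4 passed the threshold only then and 4 lost it; the cause was not tested beyond what each setting changes by construction. Scaling by library totals gave 0.55 for Mcm7, 0.57 for Orc2 and 0.46 for Chaf1a on the log2 scale, and a mean of at least 10 counts gave 0.18, 0.21 and 0.092, all opposite in sign. Gins2 gave -0.083 with no filter. Leaving out 1 library, it ran from -0.089 to 0.13 and was below 0 without ESC replicate 1 or 3 and without neuron replicate 3. With no filter, 22 replication genes were lower, 1 neighbour higher and 39 genes of the other lists lower, since more genes were tested. On genes sharing no exonic base, which leaves out the neighbours and Pcna, 1 replication gene was higher, and 7 genes of the other lists were lower and 1 higher. A mean of at least 10 counts left 4 of the other lists higher.

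Leaving out 1 library at a time gave 3 to 13 replication genes lower and 7 to 8 higher, 12 to 13 neighbours lower and 0 to 1 higher, and 15 to 26 genes of the other lists lower and 3 to 8 higher. With mitochondrial genes and the 10 most counted genes taken out of the total, replication genes held 0.124% in ESC and 0.322% in neurons, and neighbours 1.36% and 0.160%. Pcna ranged from -3.39 to -2.43 and AV099323 from -4.83 to -3.95 over 13 alternatives, all with the same call. With the replicate block, 5 replication genes were lower and 7 higher, 13 neighbours were lower, and 17 genes of the other lists were lower and 7 higher. Deviations of same-numbered samples correlated at 0.019, 0.0039 and -0.022, so the numbers do not pair them. Depth limits the 29 replication genes that were not tested, which had at most 30 counts in any library.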
